A study of Mus musculus with 6 samples.

Results

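The collagen genes were taken as every row of the deposited expression table whose symbol has the form of Col, a type number, a and a chain number. This rule gave 44 genes among the 21720 symbols measured, and it used no expression value. They comprised 11 fibrillar, 8 basement membrane, 9 fibril-associated and 2 epithelial collagen genes, and 14 others. The RNA came from subcutaneous tumours that grew from H22 cells, a mouse hepatocellular carcinoma line, in young female BALB/c mice. Control mice were gavaged with 0.5% CMC-Na (carboxymethyl cellulose sodium, the vehicle) and treated mice with 200 mg/kg luteolin, a plant flavonoid, each in 0.2 mL per day over 21 days, from a tumour volume of about 50 mm3. The RNA-seq libraries numbered 3 per group, with 61081637 to 80442954 counts each. Nothing in the labels ties a library to an animal, so p-values measure only the spread between these libraries, which may be technical. The transplanted cells form the tumour cell part, and the host mouse supplies the vessels, fibroblasts and immune cells, so RNA of the whole tumour mixes both.

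Collagens are secreted proteins in which 3 chains wind into a triple helix, and the helix needs a glycine in each of its short repeats. Fibrillar collagens assemble into the cross-striated fibrils that carry tension in connective tissue, and the fibril-associated types coat those fibrils. Basement membrane collagens form sheets under epithelium and around vessels, and the epithelial types anchor keratinocytes to the tissue below. In solid tumours, fibroblasts are the main source of the fibrillar types, and a dense collagen matrix is a familiar feature of tumour stroma.

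The repeat of glycine is visible in the genes themselves. In the GENCODE M21 annotation of GRCm38, 305 of the 627 internal coding exons of the fibrillar collagen genes (48.64%) were exactly 54 bases long, against 0.73% of those of all protein-coding genes. The 54-base length was rarer in the basement membrane class (4.43%). Exons whose length was a multiple of 9 bases, the length of 1 triplet repeat, made up 83.9% of the fibrillar, 45.2% of the basement membrane and 14.3% of all protein-coding internal exons. One such exon is shown for each of 4 fibrillar genes that passed the study's threshold below, from coding exon 8 of Col1a1 (chr11:94939904-94939957, plus strand), coding exon 6 of Col3a1 (chr1:45325360-45325413, plus strand), coding exon 15 of Col5a1 (chr2:27965251-27965304, plus strand) and coding exon 6 of Col5a2 (chr1:45434892-45434945, minus strand). Capitals mark the glycine codons that open each repeat, 6 in every exon. Each is the first internal 54-base exon of its gene that starts on a whole codon and has glycine at all 6 places. The number 6 was thus fixed by the choice of exon.
Col1a1: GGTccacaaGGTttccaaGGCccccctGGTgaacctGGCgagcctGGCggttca
Col3a1: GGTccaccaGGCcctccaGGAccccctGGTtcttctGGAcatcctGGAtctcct
Col5a1: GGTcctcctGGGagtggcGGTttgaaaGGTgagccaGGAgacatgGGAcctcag
Col5a2: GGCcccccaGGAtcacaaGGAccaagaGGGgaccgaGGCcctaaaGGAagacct

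Across the class as a whole, collagen RNA was more abundant in luteolin, with no overlap between the groups. Collagen genes took 0.299%, 0.249% and 0.263% of all counts in the controls (replicates 1 to 3, in that order here and throughout), and 0.653%, 0.858% and 0.420% in the luteolin group. Luteolin replicate 2 was highest, and luteolin replicate 3 was nearest to the controls. In a bulk tumour sample, more cells of a type that makes collagen and more collagen RNA per cell cannot be told apart. The sum of CPM per kilobase of transcript (CPM are counts relative to a library total normalized by TMM) was 463 ± 35.8 in control and 1027 ± 343 in luteolin (mean ± SD, n = 3 each). Because this total is led by a few genes, the genes were tested one by one.

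**Figure D1:**
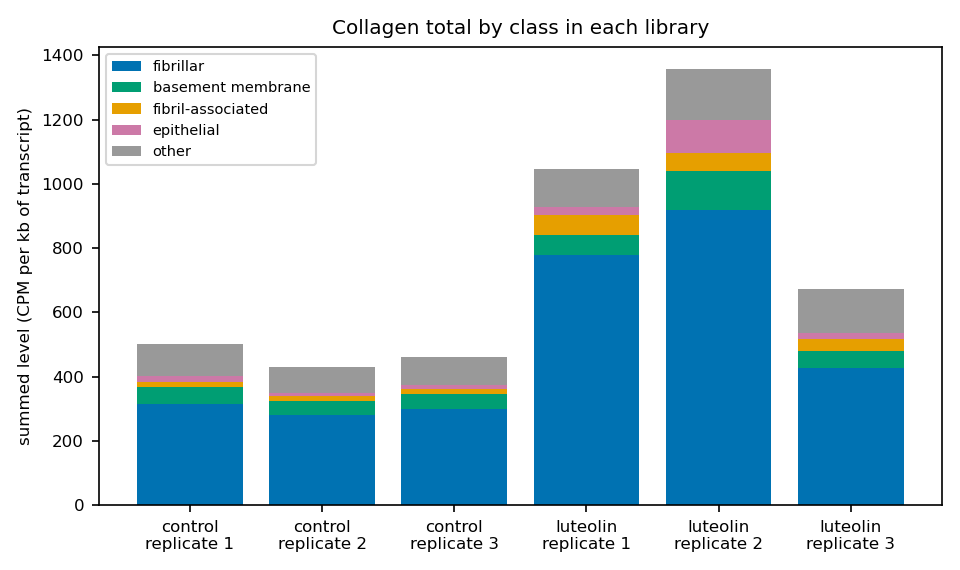
Summed collagen level in each library (y axis, CPM per kb of transcript), stacked by collagen class, for the 3 control and 3 luteolin libraries on the x axis. The controls reach 429 to 501 and the luteolin libraries 674 to 1358, with the fibrillar class the tallest segment in every bar.

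Of the 44 genes, 37 had enough counts to be tested among 14963 genes. The study called a gene at an unadjusted p under 0.05 and a change over 2-fold. By that threshold 17 collagen genes were higher in luteolin, and 11.3% of all tested genes were. At an adjusted p under 0.05 (edgeR quasi-likelihood test, Benjamini-Hochberg over all tested genes), 6 collagens were higher, against 1.34% of all tested genes. These 6 were Col5a1, Col5a2, Col5a3, Col27a1, Col12a1 and Col6a3. None was lower by either rule (0 of 37, against 1.52% and 0.187% of all tested genes), though Col4a5 and Col20a1, 2 genes in all, had a negative change at an unadjusted p under 0.05. DESeq2 counted 14 higher and 1 lower (Col4a5) at an adjusted p under 0.05, with 1543 higher and 415 lower over all genes. The median log2 fold change was 1.06 over the 37 collagens and -0.01 over all genes tested. Whether genes passed at the adjusted p depended on which library was left out, for collagens and for all genes. With control replicate 1, 2 or 3 or luteolin replicate 1 left out, edgeR called 0 collagens at an adjusted p under 0.05, and 0 of all genes, while 17, 14, 15 and 20 collagens were higher at an unadjusted p under 0.05. Without luteolin replicate 3, 4 of the 6 were still called, and without luteolin replicate 2 all 6 were.

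Luteolin replicate 2 stood apart from the other libraries in markers of skin. The summed level of 11 keratinocyte markers was 17.8, 13.7 and 15.7 CPM in the controls, and 400, 8905 and 20.1 CPM in the luteolin libraries. Of these, 8 (Krt5, Krt14, Krt1, Krt15, Dsg3, Lor, Flg and Krtdap) were at 0 in every control library. The highest value of 22 of the 37 collagens (59.5%) lay in that library, against 33.5% of all tested genes. Without it the median log2 fold change of the collagens was 0.78, and 14 passed the study's threshold as higher. Luteolin replicate 1, whose keratinocyte sum of 400 CPM was also far above the controls, stayed in that fit. Luteolin replicate 3 also held the basal keratins Krt5 and Krt14, at 4.74 and 4.33 CPM. Its sum was close to that of the controls while Ivl, which made up most of the control sum at 13.7, 9.31 and 12.4 CPM, was 4.396 CPM there (Ivl is named after its values were seen). The part of skin in the collagen values was not tested.

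**Figure D2:**
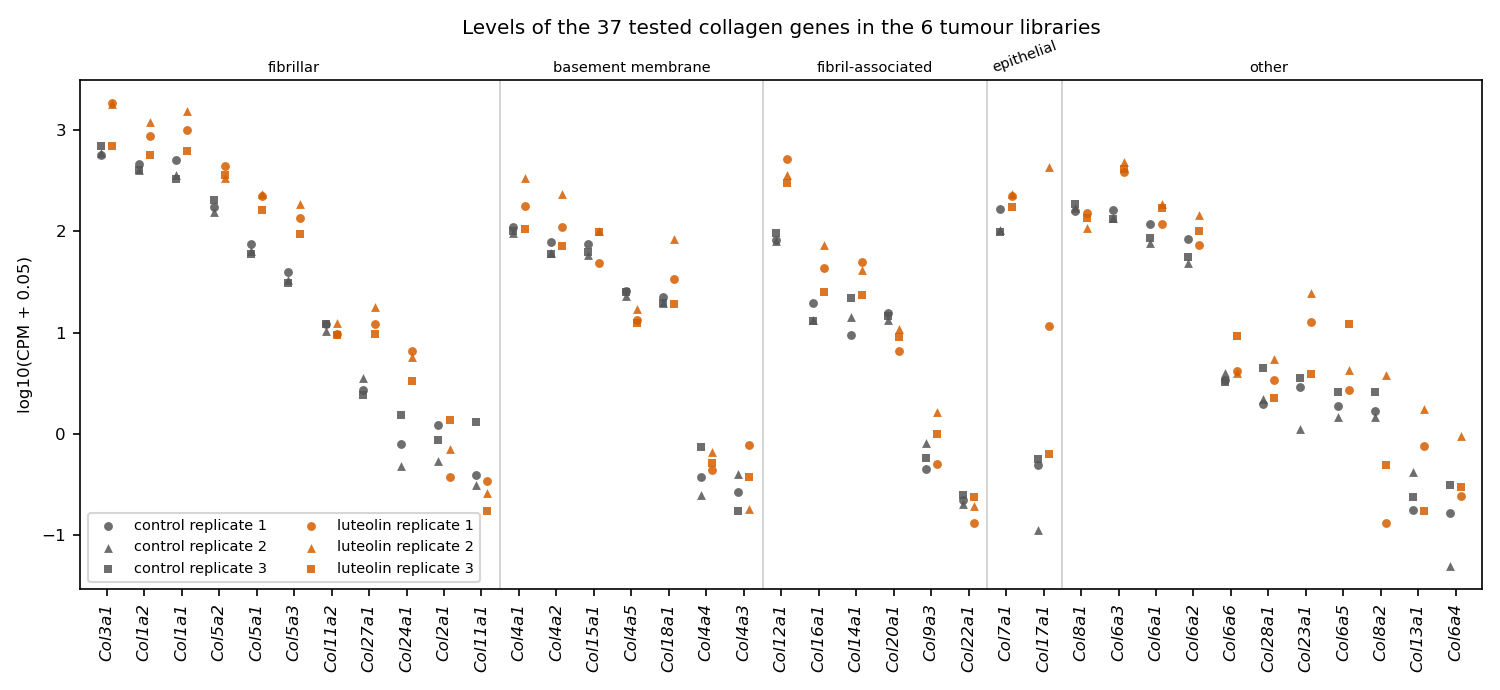
Level of each of the 37 tested collagen genes (y axis, log10 of CPM + 0.05), grouped by class on the x axis and ordered by level, with 1 symbol for each of the 6 libraries. In the fibrillar class the luteolin points of Col3a1 to Col5a3 lie above the controls, and Col17a1 shows luteolin replicate 2 far above all other libraries at 434 CPM.

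Fibrillar genes carried most of the collagen RNA in both groups, 64.6% ± 1.31 of the per-kilobase total in control and 68.4% ± 5.42 in luteolin. All 11 were tested, and 8 passed the study's threshold as higher (11.3% of all tested genes did). At the adjusted p 4 of them also passed (1.34% of all). The median log2 fold change of the 11 was 1.23. Types I and III, the bulk fibrils of skin and stroma, were the most abundant. Col1a1 stood at 502, 363 and 325 CPM in control and 1003, 1522 and 619 CPM in luteolin. Every luteolin library lay above every control, as for 15.8% of all tested genes. The fitted log2 fold change of Col1a1 was 1.41 (SE 0.34, adjusted p = 0.0976, edgeR). Its partner chain Col1a2 gave 459, 403 and 399 CPM in control and 864, 1195 and 565 CPM in luteolin, again without overlap. Its log2 fold change of 1.06 (adjusted p = 0.103, edgeR) became 0.78 without luteolin replicate 2, where it no longer passed the study's threshold. Col3a1 was the most abundant collagen per kilobase in both groups, and measured 562, 590.1 and 697 CPM in control and 1827, 1796 and 699.9 CPM in luteolin. Here luteolin replicate 3 lay barely above the highest control, and the log2 fold change was 1.23 (adjusted p = 0.132, edgeR).

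Type V collagen joins type I fibrils in small amounts and is known to set their number and width. All 3 of its chains rose at an adjusted p under 0.05. Col5a1 had 74.0, 63.8 and 59.2 CPM in control and 223, 234 and 162 CPM in luteolin. Every luteolin library was above every control, as for 15.8% of all tested genes, and the lowest was well clear of the highest control. The change was 3.15-fold (log2 1.66, SE 0.19, adjusted p = 0.0331, edgeR). Col5a2 measured 175, 153 and 202 CPM against 436, 336 and 356 CPM, a change of 2.14-fold (log2 1.10, SE 0.17, adjusted p = 0.0420, edgeR). This gene was highest in luteolin replicate 1, not in replicate 2, and its log2 change was 0.98 without that library and 0.99 without control replicate 2, both under the 2-fold limit. Col5a3 measured 39.3, 33.0 and 31.0 CPM against 135, 184 and 94.1 CPM, a change of 4.01-fold (log2 2.005, SE 0.27, adjusted p = 0.0331, edgeR). Without luteolin replicate 2 the log2 changes of the 3 chains were 1.57, 1.18 and 1.75.

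The late-described fibrillar genes Col24a1 and Col27a1 encode minor fibrillar chains and were low in these tumours. Col27a1 stood at 2.63, 3.52 and 2.36 CPM in control and 12.1, 17.6 and 9.61 CPM in luteolin. It rose 4.64-fold (log2 2.21, SE 0.35, adjusted p = 0.0420, edgeR). Every luteolin library lay above every control, as for 15.8% of all tested genes. Col24a1 had 0.744, 0.432 and 1.47 CPM against 6.56, 5.69 and 3.30 CPM, with a log2 fold change of 2.56 that missed the adjusted threshold (adjusted p = 0.0832, edgeR). The cartilage chains behaved differently in that none of the 3 passed either threshold. Col2a1, the main cartilage collagen, lay between 0.326 and 1.31 CPM in all libraries, Col11a1 between 0.125 and 1.26 CPM, and Col11a2 between 9.37 and 12.4 CPM. Cartilage and bone markers, 10 in all, summed to 30.9 to 48.97 CPM in control and 54.3 to 90.2 CPM in luteolin.

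**Figure D3:**
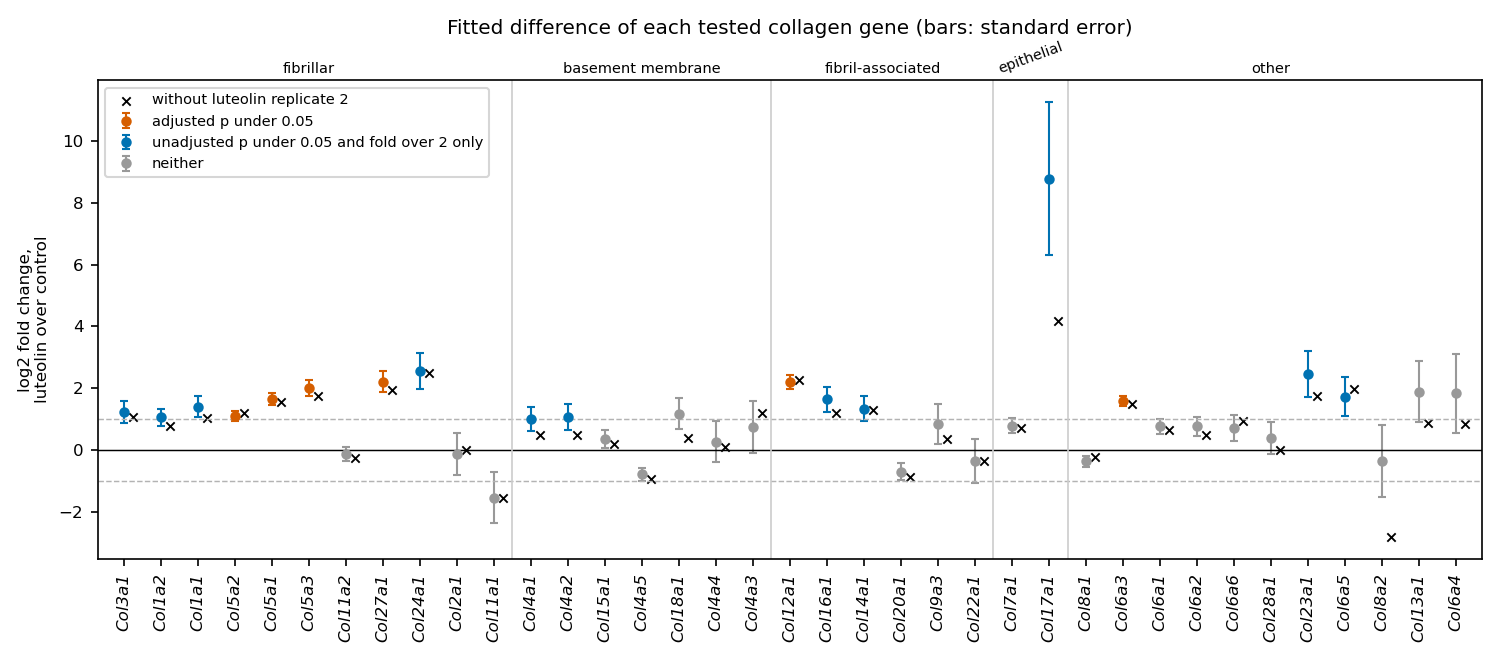
Fitted log2 fold change of luteolin over control for each tested collagen gene (y axis, bars are the standard error), by class on the x axis. Orange marks the 6 genes with an adjusted p under 0.05, blue those passing the study's threshold only, and crosses the value without luteolin replicate 2, which falls to 4.17 for Col17a1 and to 0.47 and 0.48 for Col4a1 and Col4a2.

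Fibril-associated collagens have interrupted triple helices and sit on the surface of fibrils. Of the 9 genes, 6 were tested, and 3 passed the study's threshold as higher (11.3% of all tested genes did). At the adjusted p 1 of them passed (1.34% of all). That gene, Col12a1, is known to accompany type I fibrils in tissues under load. It measured 81.8, 79.7 and 95.4 CPM in control and 514, 361 and 302 CPM in luteolin. Every luteolin library was above every control, as for 15.8% of all tested genes, and the lowest lay far above the highest control. Col12a1 rose 4.59-fold (log2 2.20, SE 0.23, adjusted p = 0.0309, edgeR). Without luteolin replicate 2 the log2 fold change was 2.27. Col14a1, which also binds fibrils, had 9.34, 14.1 and 22.1 CPM in control and 50.1, 41.4 and 23.4 CPM in luteolin (log2 1.34, adjusted p = 0.139, edgeR). Col16a1 had 19.7, 13.4 and 13.0 CPM against 43.6, 73.7 and 25.3 CPM (log2 1.64, adjusted p = 0.0992, edgeR). For Col14a1, luteolin replicate 3 lay only just above the highest control, and for Col16a1 the gap was wider. Col20a1 was the reverse, with 15.4, 13.1 and 14.4 CPM in control and 6.53, 10.9 and 8.995 CPM in luteolin. Every luteolin library was below every control, as for 12.9% of all tested genes, and the log2 fold change was -0.70 (adjusted p = 0.207, edgeR). Col9a3 and Col22a1 stayed under 1.61 CPM in all libraries and passed neither threshold. Col9a1 had 0 counts in all 6 libraries, and Col9a2 and Col19a1 were too low to test.

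The basement membrane class showed no adjusted call, and its chains did not move alike. Of 8 genes, 7 were tested and 2 passed the study's threshold, where 11.3% of all tested genes did. The class median log2 fold change was 0.75. Col4a1 and Col4a2 encode the type IV network found under nearly every epithelium and endothelium. Col4a1 had 111, 96.3 and 101 CPM in control and 177, 334 and 105 CPM in luteolin. Col4a2 had 78.0, 60.4 and 59.2 CPM in control and 111, 234 and 70.9 CPM in luteolin. Both were highest in luteolin replicate 2 and overlapped the controls through luteolin replicate 3. Their log2 fold changes of 1.00 and 1.08 (adjusted p = 0.215 and 0.216, edgeR) became 0.47 and 0.48 without luteolin replicate 2, at an unadjusted p of 0.0847 and 0.0905 in the same fit across all genes. Their calls at the study's threshold were fragile elsewhere as well. Without control replicate 1, 2 or 3 the unadjusted edgeR p was 0.0733, 0.0942 and 0.0952 for Col4a1 and 0.0567, 0.0970 and 0.109 for Col4a2, and without luteolin replicate 1 it was 0.0516 for Col4a1. Endothelial markers, 8 genes, had the same order within luteolin, summing to 93.0, 93.4 and 113 CPM in control and 181, 291 and 109 CPM in luteolin. Several other marker lists, given below, had that order too. The part of endothelium in the type IV values was not tested.

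Col4a1 and Col4a2 lie head to head on opposite strands of chromosome 8. By their RefSeq start sites on GRCm38.p6, their 5′ ends overlap by 22 bases (chr8:11312805-11312826).

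Col4a5, a chain of the more restricted type IV networks of kidney and other epithelia, went the other way. It measured 25.6, 23.0 and 25.3 CPM in control and 13.2, 17.1 and 12.5 CPM in luteolin. The highest luteolin library lay below the lowest control, as for 12.9% of all tested genes. The log2 fold change was -0.78 (SE 0.21, unadjusted p = 0.00658, adjusted p = 0.109, edgeR). With offsets for GC content and transcript length the adjusted p was 0.0384, and with DESeq2 it was 0.00416. Col4a6, whose start site lies 1343 bases from that of Col4a5 on the X chromosome, was too low to test. Col4a3 and Col4a4 stayed under 0.72 CPM in all libraries. Col15a1 and Col18a1 encode the basement membrane collagens from which restin and endostatin are cleaved. Col15a1 lay between 57.8 and 75.5 CPM in control and 48.8 and 101 CPM in luteolin, and passed neither threshold. Col18a1 had 22.2, 19.7 and 19.4 CPM in control and 33.9, 84.0 and 19.1 CPM in luteolin, so that its log2 fold change of 1.17 (adjusted p = 0.253, edgeR) became 0.39 without luteolin replicate 2.

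Both genes of the epithelial pair were highest in luteolin replicate 2. Col7a1 forms the anchoring fibrils that fix the epidermal basement membrane to the dermis. It was well expressed in the controls at 164, 103 and 97.7 CPM, and measured 220.4, 235 and 173 CPM in luteolin (log2 0.79, adjusted p = 0.151, edgeR). Col17a1 encodes a transmembrane collagen of hemidesmosomes, made by basal keratinocytes. Its counts were 31, 4 and 33 in control and 710, 36570 and 37 in luteolin, or 0.444, 0.0618 and 0.512 CPM against 11.6, 434 and 0.579 CPM. Luteolin replicate 3 was thus close to the controls while luteolin replicate 2 was far above all others. The log2 fold change of 8.78 (SE 2.48, adjusted p = 0.125, edgeR) fell to 4.17 without that library. Within luteolin Col17a1 followed the order of the keratinocyte sum given above, which several other marker lists had too. The part of keratinocytes in the Col17a1 value was not tested. In luteolin replicate 2 the epithelial pair made up 7.60% of the per-kilobase collagen total, against 2.33% to 3.59% in the other libraries.

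Among the other 14 genes, 11 were tested and 3 passed the study's threshold as higher (11.3% of all tested genes did). Of these, 1 also passed at the adjusted p (1.34% of all). Type VI collagen forms beaded microfilaments between fibrils and around cells. Its largest chain gene, Col6a3, measured 161, 136 and 132 CPM in control and 386, 484 and 411 CPM in luteolin. It rose 2.99-fold with little spread within either group, and had the smallest p of all collagens (log2 1.58, SE 0.16, adjusted p = 0.0306, edgeR). Its partner chains changed less. Col6a1 had 118, 76.7 and 85.9 CPM in control and 118, 186 and 170.4 CPM in luteolin, with a log2 fold change of 0.76 (adjusted p = 0.156, edgeR). Col6a2 overlapped between the groups, at 84.5, 49.1 and 55.1 CPM against 73.8, 144 and 101 CPM (log2 0.76, adjusted p = 0.229, edgeR). The remaining type VI genes were low. Col6a5 went from 1.82, 1.41 and 2.56 CPM to 2.64, 4.24 and 12.2 CPM (log2 1.72, adjusted p = 0.191, edgeR). Without luteolin replicate 3, the highest library, its log2 change was 0.79, and it missed the study's threshold there and without control replicate 1 (log2 1.68, unadjusted p = 0.0869, edgeR) or control replicate 2 (log2 1.54, unadjusted p = 0.0991, edgeR). Col6a6 lay between 3.21 and 9.12 CPM, and Col6a4 stayed under 0.91 CPM, with a log2 change of 1.84 that became 0.83 without luteolin replicate 2.

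The short-chain, transmembrane and remaining collagens were mostly low. Col8a1, which forms a hexagonal network in vessel walls and the cornea, was the exception at 157, 169 and 186 CPM in control and 153, 107 and 136 CPM in luteolin. Every luteolin library lay below the controls, as for 12.9% of all tested genes, but the log2 fold change of -0.37 did not pass (adjusted p = 0.288, edgeR). Col8a2 lay at 1.65, 1.42 and 2.54 CPM in control and 0.0816, 3.79 and 0.438 CPM in luteolin, with a log2 fold change of -0.37 that became -2.81 without luteolin replicate 2, where it passed the study's threshold as lower. Col23a1, a transmembrane collagen, had 2.88, 1.07 and 3.49 CPM in control and 12.7, 24.3 and 3.86 CPM in luteolin (log2 2.47, adjusted p = 0.141, edgeR), and its log2 change was 1.76 without luteolin replicate 2. The transmembrane Col13a1 stayed under 1.70 CPM (log2 1.89, and 0.87 without luteolin replicate 2) and Col28a1 between 1.90 and 5.43 CPM, and neither passed. Col10a1, a marker of hypertrophic cartilage, and Col26a1 were too low to test. Col25a1 had 0 counts in every control library and 4, 0 and 9 counts in luteolin replicates 1, 2 and 3, also too low to test. A count of 0 in a library allows up to 3 counts by counting error only, or up to 12 if each read pair added 4 units to the table.

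Over all classes, 18 of the 37 tested collagens had every luteolin library above every control, where 15.8% of all tested genes did. For 3 of the 37 (Col4a5, Col20a1 and Col8a1) every luteolin library was below, where 12.9% of all tested genes were. For Col6a1 the gap was small, from 118.15 CPM in the highest control to 118.43 CPM in the lowest luteolin library.

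Ratios between collagen chains do not depend on the library total, and were computed per kilobase of transcript. The ratio of Col4a1 to Col4a2 was 1.54 ± 0.140 in control and 1.47 ± 0.0878 in luteolin (mean ± SD, n = 3 each). The ratio of Col6a1 to Col6a2 was likewise 1.45 ± 0.0893 and 1.47 ± 0.205. In both pairs the groups overlapped. The ratio of Col1a1 to Col1a2 was 0.987, 0.813 and 0.734 in control and 1.05, 1.15 and 0.988 in luteolin, so that the groups met at their edges. Other pairs were further apart. Col4a5 to Col4a1 stood at 0.242, 0.252 and 0.262 in control and 0.0781, 0.0539 and 0.125 in luteolin. Col6a3 to Col6a1 stood at 0.552, 0.722 and 0.626 in control and 1.32, 1.06 and 0.977 in luteolin. Col5a3 to Col5a1 went from 0.729, 0.711 and 0.719 to 0.833, 1.08 and 0.796. With 3 libraries against 3, an exact permutation test of such a ratio cannot go below p = 0.1, so these are given as values.

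**Figure D4:**
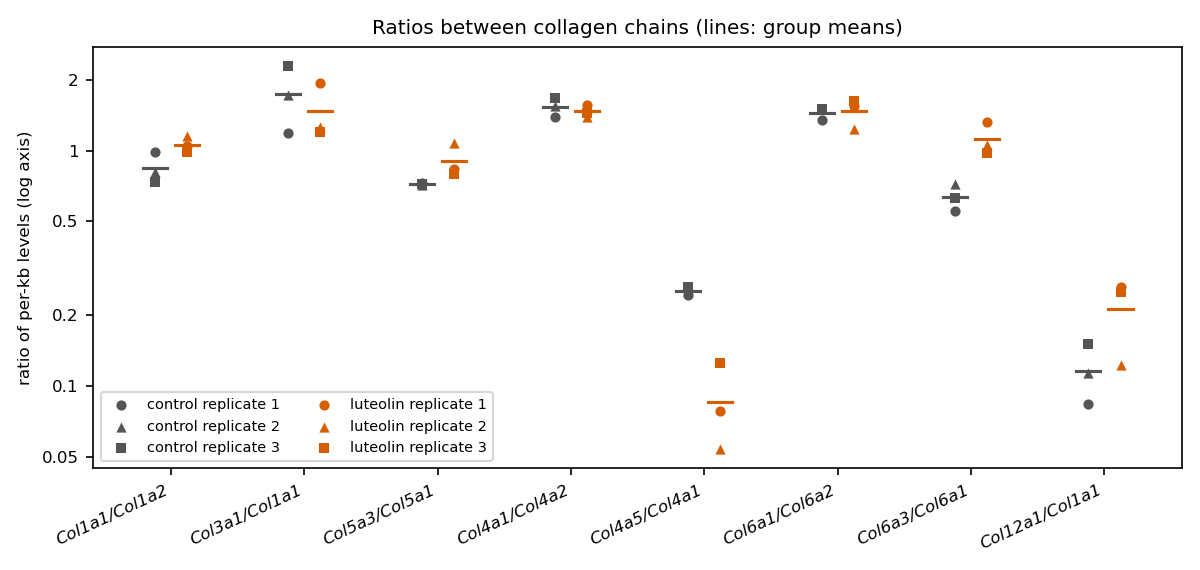
Ratio of the per-kilobase levels of 2 collagen chains (y axis, log axis) for 8 pairs on the x axis, 1 symbol per library and a line at each group mean. Col4a1/Col4a2 and Col6a1/Col6a2 overlap between groups, whereas Col4a5/Col4a1 goes from 0.252 to 0.0856 and Col6a3/Col6a1 goes from 0.633 to 1.12.

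Promoters of the collagen genes were compared with all RefSeq promoters (GRCm38.p6), using the 250 bases before each start. Entries were found for 35 of the 44 genes, in 38 windows. The GC box GGGCGG was present on either strand in 57.9% of the collagen windows and 32.7% of all 32851 windows. CCAAT occurred in 34.2% and 33.8% of them, and TATAAA in 13.2% and 12.4%, each also on either strand. No motif is contained in another. The windows of 4 genes that passed the study's threshold are shown to compare the promoter of a keratinocyte collagen with those of 3 fibrillar genes. They belong to Col1a2 (chr6:4505368-4505617, plus strand), Col3a1 (chr1:45311288-45311537, plus strand), Col5a1 (chr2:27886175-27886424, plus strand) and Col17a1 (chr19:47692043-47692292, minus strand). Capitals mark matches to the 3 motifs or their reverse complements.
Col1a2: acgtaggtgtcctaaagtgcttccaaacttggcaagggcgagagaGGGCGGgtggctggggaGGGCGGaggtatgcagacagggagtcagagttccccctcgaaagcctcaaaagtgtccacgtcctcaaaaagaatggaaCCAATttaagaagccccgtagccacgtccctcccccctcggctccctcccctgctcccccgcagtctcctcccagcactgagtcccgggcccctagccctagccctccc
Col3a1: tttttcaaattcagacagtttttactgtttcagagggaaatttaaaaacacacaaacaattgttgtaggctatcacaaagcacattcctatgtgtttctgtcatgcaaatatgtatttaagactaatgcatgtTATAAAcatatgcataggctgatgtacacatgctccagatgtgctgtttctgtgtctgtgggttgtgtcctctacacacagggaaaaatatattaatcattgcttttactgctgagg
Col5a1: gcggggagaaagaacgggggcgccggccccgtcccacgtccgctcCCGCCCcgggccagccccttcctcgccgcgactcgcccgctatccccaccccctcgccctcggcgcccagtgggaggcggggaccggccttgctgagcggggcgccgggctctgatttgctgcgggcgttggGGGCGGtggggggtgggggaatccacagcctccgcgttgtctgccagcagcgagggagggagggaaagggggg
Col17a1: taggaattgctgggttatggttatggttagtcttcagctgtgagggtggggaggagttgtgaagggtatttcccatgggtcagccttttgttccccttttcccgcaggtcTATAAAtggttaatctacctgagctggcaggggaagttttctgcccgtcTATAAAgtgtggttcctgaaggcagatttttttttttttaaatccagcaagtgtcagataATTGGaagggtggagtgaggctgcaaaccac

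The fibrillar windows did not share 1 pattern. Col1a2 held GC boxes and a CCAAT, Col5a1 GC boxes only, and Col3a1 a TATAAA only, although all 3 genes were higher in luteolin at the study's threshold. The window of Col6a3, which is not printed, held none of the 3 motifs on either strand. Such matches describe letters in the windows and show no binding.

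Genes that act on collagen were read from 6 lists, to be set against 11.3% of all tested genes higher at the study's threshold and 1.34% at the adjusted p. At the adjusted p, each list had 0 calls when control replicate 1, 2 or 3 or luteolin replicate 1 was left out. Inside the cell, prolyl and lysyl hydroxylases, collagen galactosyltransferases and chaperones modify and fold the chains. Of 20 such genes tested, 2 passed the study's threshold as higher, a share near the 11.3% of all tested genes, and 0 passed at the adjusted p. The median log2 fold change was 0.07. P4hb, a subunit of prolyl 4-hydroxylase, gave 939.8, 930.5 and 906 CPM in control and 959.6, 923 and 932 CPM in luteolin. Serpinh1, the collagen chaperone HSP47, stood at 59.8, 75.2 and 58.0 CPM in control and 87.5, 208 and 99.7 CPM in luteolin, with a log2 fold change of 1.04 (adjusted p = 0.169, edgeR). The other gene that passed the study's threshold was P3h2, a prolyl 3-hydroxylase, named here after its value was seen (log2 2.69). Without luteolin replicate 2 both missed the threshold, with log2 changes of 0.56 for Serpinh1 and 1.18 for P3h2 (unadjusted p = 0.0831, edgeR), which left 0 of 20. The count was also 0 without control replicate 1 or 3 and 1 without control replicate 2, but 2 without luteolin replicate 3 and 3 without luteolin replicate 1.

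Outside the cell, proteases remove the propeptides and lysyl oxidases cross-link the fibrils. Of 12 genes tested, 5 passed the study's threshold (11.3% of all tested genes did) and 3 rose at the adjusted p (1.34% of all). Loxl2, a lysyl oxidase, measured 19.7, 25.7 and 22.6 CPM in control and 72.3, 80.9 and 70.3 CPM in luteolin (log2 1.72, SE 0.17, adjusted p = 0.0302, edgeR). Adamts2, the N-propeptidase of types I and III, measured 19.9, 18.6 and 16.3 CPM against 60.3, 78.3 and 52.4 CPM (log2 1.81, adjusted p = 0.0331, edgeR). Neither gene overlapped between groups, and 15.8% of all tested genes had every luteolin library above every control. The C-propeptidase Bmp1 did overlap, at 180.0 to 270.1 CPM in control and 201 to 286 CPM in luteolin, with a log2 fold change of 0.25. The third gene called was Loxl3 (log2 1.16), named here after its value was seen, and it was not called without luteolin replicate 3.

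Proteoglycans and glycoproteins organize the fibrils. Of 11 tested, 5 passed the study's threshold (11.3% of all tested genes did) and 1, Bgn, rose at the adjusted p (1.34% of all). Without control replicate 1, 3 passed the study's threshold, and without luteolin replicate 3, 6 passed it and 2 passed at the adjusted p. Bgn encodes biglycan and stood at 175, 169 and 190 CPM in control and 416, 568 and 381 CPM in luteolin (log2 1.36, adjusted p = 0.0332, edgeR). Sparc, which binds collagen, measured 363, 381 and 366 CPM against 725, 871 and 560.2 CPM (log2 0.96, adjusted p = 0.0612, edgeR). Bgn and Sparc had every luteolin library above every control, as for 15.8% of all tested genes. Fn1, fibronectin, lay between 8516 and 19524 CPM and overlapped between the groups (log2 -0.40, adjusted p = 0.426, edgeR).

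Basement membrane partners and receptors gave no adjusted call. Of 16 laminins, nidogens and related genes, 4 passed the study's threshold, and of 10 receptors tested, 3 did, where 11.3% of all tested genes passed. The receptor count was 1 without luteolin replicate 2, 2 without control replicate 1 or 2 or luteolin replicate 1 or 3, and 4 without control replicate 3. Among the former, Pxdn, which cross-links type IV collagen, had the smallest p (log2 1.30, adjusted p = 0.0531, edgeR), and Lamb1, the most abundant, did not pass (log2 -0.21). Among receptors, Mrc2, which takes up collagen fragments, stood at 16.4, 14.9 and 13.7 CPM in control and 27.5, 43.0 and 25.6 CPM in luteolin (log2 1.10, adjusted p = 0.0845, edgeR), with a log2 change of 0.84 without luteolin replicate 2. The integrin subunit Itgb1 and the discoidin receptors Ddr1 and Ddr2 overlapped between groups.

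The last list held genes of collagen breakdown. Of 11 tested, 4 passed the study's threshold (11.3% of all tested genes did) and 3 rose at the adjusted p (1.34% of all). Ctsk, cathepsin K, which cuts the triple helix, measured 12.7, 16.2 and 17.6 CPM in control and 76.3, 73.9 and 54.3 CPM in luteolin (log2 2.14, SE 0.22, adjusted p = 0.0306, edgeR). Mmp2, a gelatinase, measured 27.5, 21.2 and 24.7 CPM against 93.5, 125 and 56.4 CPM (log2 1.91, adjusted p = 0.0429, edgeR). The third was Mmp14, the membrane protease that activates Mmp2 (log2 1.19), named here after its value was seen, and it was not called at the adjusted p without luteolin replicate 2 (adjusted p = 0.0527, edgeR) or luteolin replicate 3, which left 2 genes. For Ctsk and Mmp2 every luteolin library lay above every control, as for 15.8% of all tested genes. None of the 6 lists had a member lower at either threshold.

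**Figure D5:**
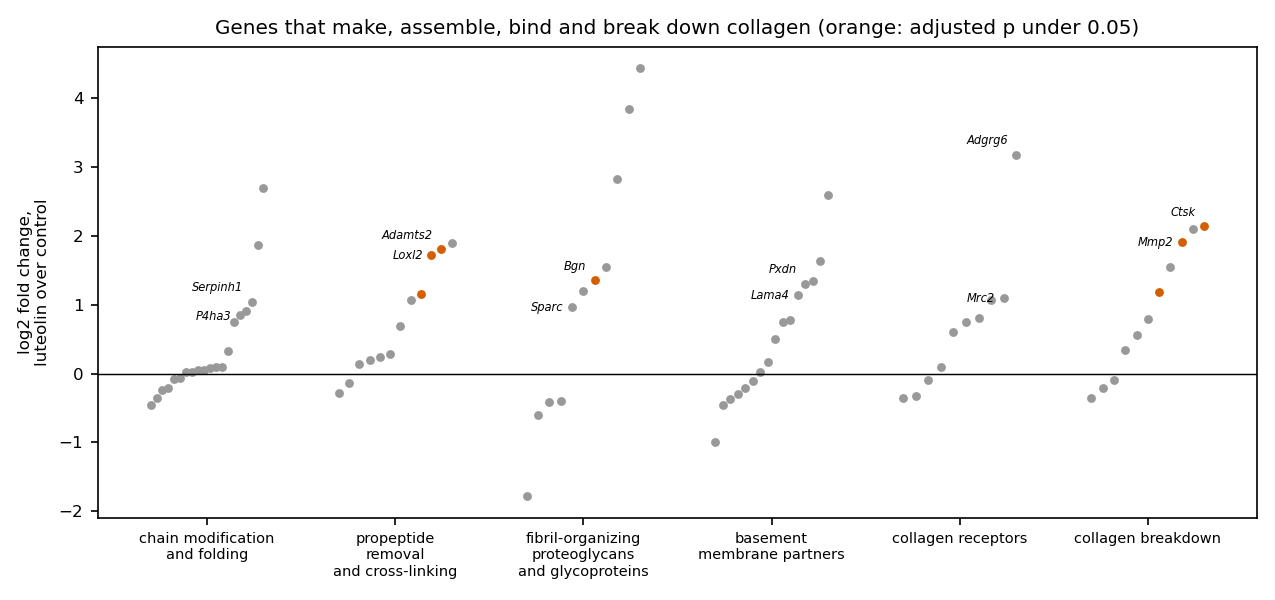
Fitted log2 fold change of luteolin over control (y axis) for each tested gene of the 6 lists of collagen partners on the x axis, ordered within a list, with the 2 smallest p of each list named. The orange points, 7 genes with an adjusted p under 0.05, lie in 3 lists, and most genes of chain modification and folding lie near 0.

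Among markers of cell types that make collagen, the fibroblast sum was higher in luteolin without overlap. The 10 fibroblast markers summed to 135, 129 and 183 CPM in control and 644, 793 and 317 CPM in luteolin, and 8 of the 10 had every luteolin library above every control, where 15.8% of all tested genes did. Of the 10, 6 passed the study's threshold (11.3% of all). Thy1 (log2 2.07) and Pi16 (log2 3.21) also passed at the adjusted p (1.34% of all), though not without control replicate 1, 2 or 3 or luteolin replicate 1. Pdgfra, among the 3 most abundant, passed neither (log2 0.83, adjusted p = 0.153, edgeR). Lum and Fap overlapped between the groups, and Fap had a negative log2 change of -0.36. Pi16, Lum and Fap are named here after their values were seen. Dcn, which encodes decorin, stood at 4.29, 12.8 and 26.0 CPM in control and 244, 306 and 63.7 CPM in luteolin. The order of the luteolin libraries, replicate 2, 1 and then 3, was that of the collagen total. It was not particular to fibroblasts. The sums of the keratinocyte, hair follicle, endothelial, pericyte and smooth muscle, adipocyte, skeletal muscle and Schwann cell markers had that order too. The macrophage, cartilage and bone, and hepatoma sums did not. Pericyte and smooth muscle markers summed to 161 to 247 CPM in control and 230.3 to 318 CPM in luteolin, and adipocyte markers to 13.9 to 70.2 CPM and 16.8 to 352 CPM. Skeletal muscle markers gave 732 to 1640 CPM and 345 to 1296 CPM, and Schwann cell markers 31.9 to 41.9 CPM and 29.2 to 57.2 CPM. The sums of these lists overlapped between the groups. The macrophage sum did not, at 1706 to 1989 CPM and 2097 to 3008 CPM. Of 7 macrophage markers tested, 1 passed both thresholds (11.3% and 1.34% of all). This was Cd68 (log2 1.16, adjusted p = 0.0331, edgeR), named here after its value was seen. With 1 library left out, it was called at the adjusted p only where that library was luteolin replicate 2. Hair follicle markers stayed under 2.50 CPM in all libraries. The part of any of these cell types in the collagen values was not tested. Of the hepatoma markers, Trf, the most abundant, measured 347, 294 and 322 CPM in control and 122, 124 and 283 CPM in luteolin. Afp measured 59.4, 66.6 and 43.4 CPM against 32.6, 41.5 and 38.7 CPM. Of the 6 tested, these 2 had every luteolin library below every control and 1 had every one above (12.9% and 15.8% of all tested genes). At the study's threshold 1 was higher and 0 lower (11.3% and 1.52% of all). The higher gene was Gpc3 (log2 2.73, adjusted p = 0.0665, edgeR), also the one without overlap above. It stood at 1.19, 0.633 and 1.30 CPM in control and 8.24, 9.26 and 3.13 CPM in luteolin, and is named here after its values were seen. Alb overlapped, between 0.868 and 132 CPM. The liver factor Hnf4a, not among the 3 most abundant, stayed under 0.33 CPM in every library. The cause of these differences was not tested.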

How the data were processed

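The collagen genes and all gene lists were chosen with earlier results of these data known. The authors deposited 1 table of whole numbers per gene symbol and library, which were analysed as estimated counts (expected counts), since 44.8% of values from 1 to 40 were multiples of 4 (an even spread gives 25%). The submitters' processing notes name bcl2fastq 2.0, HISAT2, StringTie and DESeq2 and the builds rn6 and mm39, without roles, and the labels and the paper name different extraction and library kits. All 6 libraries were used. Counts were fitted in R 4.3.3 with edgeR 4.0.16 (TMM, filterByExpr, quasi-likelihood test, no covariates, two-sided), and adjusted by Benjamini-Hochberg over 14963 genes. CPM are counts relative to the TMM-normalized total, and SE is the log2 fold change divided by the root of F. Levels between genes and ratios use the GENCODE M21 transcript with the longest coding sequence. All coordinates are GRCm38, not the build of the files. Every collagen gene may be named. Of each partner list, the 3 most abundant and the 2 with the smallest p may be named, and of each marker list the 3 most abundant. Alternatives were DESeq2 1.42.0, limma 3.58.1 voom, other normalizations and filters, values divided by 4, GC and length offsets, a replicate block, and each library left out. The fits were tested on simulated data.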

Additional observations from a re-analysis of the deposited data

How the results depend on the processing

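The 6 collagen genes called higher at an adjusted p under 0.05 stayed called, all 6, with DESeq2, voom, RLE or upper-quartile normalization, a minimum of 10 counts in every library, values divided by 4, GC content and length offsets, and without luteolin replicate 2, and 5 of them with no filter on low counts. The count of collagens called higher was 14 with DESeq2, 18 with voom and sample quality weights, 10 with the GC content and length offsets, and 12 with DESeq2 without luteolin replicate 2. Over all genes the counts higher also grew, from 200 in the main fit to 1543, 1886, 721 and 1077 in these fits, in that order. Collagens called lower at an adjusted p numbered 1 with DESeq2 and 1 with the offsets (Col4a5 in both), and 3 with voom and 3 with DESeq2 without luteolin replicate 2 (Col20a1, Col4a5 and Col8a2 in both). Over all genes, 415, 277, 1311 and 396 were called lower in these fits, in that order, against 28 in the main fit. At the study's threshold, 1 gene (Col8a2) was lower with voom and 1 with DESeq2 without luteolin replicate 2. With 1 library left out, the count higher at an adjusted p ranged from 0 to 6 and the count lower at the study's threshold from 0 to 1. Fewer samples were fitted there, and 14 to 20 collagens were higher at an unadjusted p under 0.05. The same-number correlations of deviations from the group means were -0.196, -0.092 and 0.063, and the different-number ones ran from -0.124 to 0.200. With 3 libraries per group, these values cannot show whether libraries of the same number were handled together. With the replicate block, 0 collagens were called higher at an adjusted p (15 at an unadjusted p, 12 at the study's threshold), and 34 of all genes were. Of 578 gene values under these alternatives, 7 changed sign. These were Col15a1 (-0.037) and Col9a3 (-0.24) with voom, Col2a1 (0.21) without control replicate 1, Col4a4 (-0.076) without control replicate 2, and Col2a1 (0.25), Col4a3 (-0.015) and Col8a2 (0.19) without luteolin replicate 1. With 1 library left out, these log2 changes ranged from -0.80 to 0.25 for Col2a1, -0.015 to 1.21 for Col4a3, -0.076 to 0.89 for Col4a4 and -2.81 to 0.19 for Col8a2. With all libraries edgeR called none of these genes, and the cause was not tested. Without division by transcript length, 5 of 10 mean class shares moved by more than 1 SD. For the 7 collagens too low to test, low or absent expression and limited depth cannot be told apart.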
